A study of Mus musculus with 96 samples.

Results

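The injured hippocampus at 3 days post-injury (dpi) was compared between mice given candesartan (TBI + CD) and mice given its vehicle (TBI + VH). The members of the comparison are 8 of the 96 libraries of the series, 4 in each of the 2 groups, chosen by their labels and by no measured value, and all 16756 genes that passed a filter on low counts out of 32594 listed. Traumatic brain injury (TBI) was a controlled cortical impact, in which a piston strikes the brain through an opening in the skull. The mice were male C57BL/6 mice of 8 to 10 weeks, and the hippocampus on the side of the impact was taken after perfusion with cold saline. Candesartan was injected at 0.1 mg/kg at 6, 24 and 48 h after injury, and vehicle mice received the solvent at the same times. Sham mice, with the same injections, had anaesthesia and a scalp incision but no opening of the skull, so that impact and craniectomy cannot be told apart in any comparison with them. They form the groups Sham + VH and Sham + CD, which shared the fit but not the main comparison. The 4 RNAs of highest quality in each group were sequenced, which selected among the mice, and the labels number the replicates without saying that each is a separate mouse; p-values measure the spread between these libraries.

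Candesartan blocks the angiotensin AT1 receptor. In the renin-angiotensin system, angiotensinogen is cut by renin and by angiotensin-converting enzyme to angiotensin II, which acts on AT1 receptors to constrict vessels, raise oxidant production and promote inflammation. AT2 and Mas receptors are known as an opposing arm, and candesartan is also known to activate the nuclear receptor PPAR gamma in part. After an impact, astrocytes and microglia of the hippocampus turn reactive, monocytes enter, and interferon-driven, complement and cell cycle genes are induced. The comparison asks whether the transcriptome of the injured hippocampus differed with the drug while this response was under way.

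Each of the 8 libraries held 19683802 to 27272519 counts on genes, and levels are given as CPM, counts scaled to a common library size with factors from trimmed means (TMM). Markers of hippocampal principal cells summed to 683 to 986 CPM without TMM scaling, against 184 to 213 CPM in the injured thalamus of the same study, whereas hypothalamic markers summed to 1.52 to 18.4 CPM. The libraries were therefore hippocampal by their markers. TBI + CD replicate 1 stood apart in genes of the choroid plexus, the epithelium that secretes cerebrospinal fluid and lies against the hippocampus. Its plexus markers summed to 4077 CPM, against 166 to 400 CPM in the other 7 libraries. TBI + VH replicate 2 had the lowest sum of reactive astrocyte genes of the 8 libraries, 3731 CPM, and TBI + CD replicate 3 had the highest level of several genes described below.

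No gene passed the test for a difference between TBI + CD and TBI + VH. To count as a differentially expressed gene (DEG), a gene needed an adjusted p, the false discovery rate or FDR, below 0.05 together with a log2 fold change larger than 0.32 in either direction. The quasi-likelihood F test of edgeR with Benjamini-Hochberg adjustment called 0 of 16756 genes (0%). The smallest FDR was 0.999. At an unadjusted p under 0.05 there were 732 genes (4.37%), 340 higher in TBI + CD (2.03%) and 392 lower (2.34%). DESeq2 also called 0 genes. All fold changes below are log2 differences of TBI + CD minus TBI + VH, with their standard error (SE), unless stated otherwise, and no single gene among them passed the adjusted test.

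The size of the differences that the data could bound was small for most genes. The median absolute log2 fold change was 0.07 and the median SE 0.097. For 15377 genes (91.8%) the 95% interval of the log2 fold change lay inside -1 to 1, and for 9467 genes (56.5%) it lay inside -0.32 to 0.32. Of the 10409 genes that averaged 10 CPM or more, 99.6% had an interval inside -1 to 1 and 84.6% inside -0.32 to 0.32. A difference of 1 on the log2 scale was thus outside the interval of nearly every well expressed gene, whereas a low gene could differ by more without being called.

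**Figure D1:**
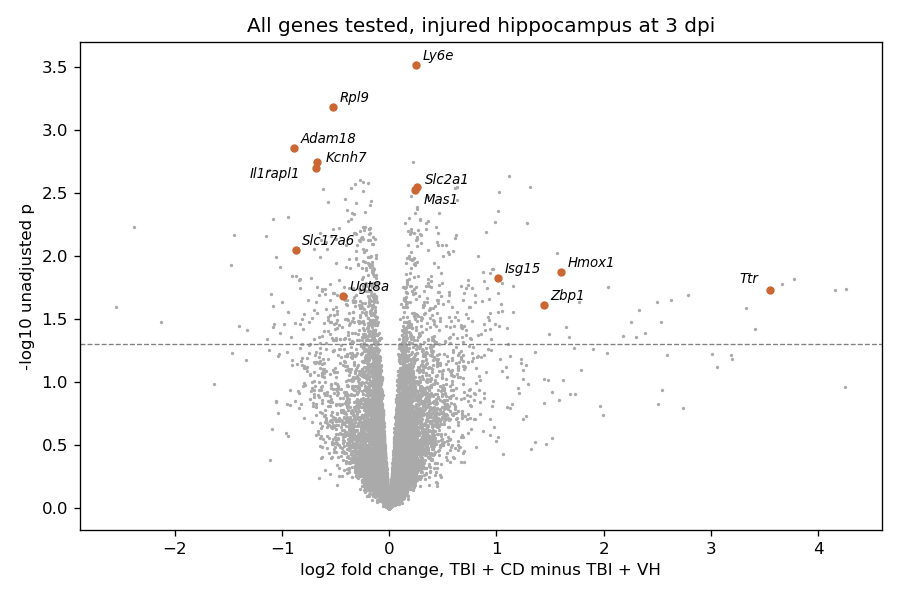
Log2 fold change of TBI + CD minus TBI + VH on the x axis against the -log10 of the unadjusted edgeR p-value on the y axis, with 1 point for each of 16756 genes tested in the injured hippocampus at 3 dpi and a dashed line at the unadjusted threshold. Named genes are in orange; Ly6e lies highest and Ttr lies far to the right at 3.55.

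The voltage-gated potassium channel gene Kcnh7 (erg3), which lies at chr2:62693414-63184287 on the minus strand of GRCm38, was among the 8 genes with the smallest p. Its levels in the TBI + VH libraries were 6.66, 6.90, 7.87 and 8.18 CPM, and those in the TBI + CD libraries 4.47, 4.10, 4.93 and 5.09 CPM. Every TBI + CD library lay below every TBI + VH library. The log2 fold change was -0.67 (SE 0.18, unadjusted p = 0.00179, edgeR FDR 0.999). Groups failed to overlap in this way for 460 genes (2.75%), 218 of them higher (1.3%) and 242 lower (1.44%) in TBI + CD. Over all alternative settings the log2 fold change of Kcnh7 stayed between -0.71 and -0.62.

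Without injury, candesartan went with the opposite difference in Kcnh7. Sham + VH libraries held 4.23, 5.95, 5.41 and 6.69 CPM and Sham + CD libraries 5.93 CPM in replicate 1 and 10.7 to 11.9 CPM in the other 3, so that 3 of the 4 Sham + CD libraries stood above all Sham + VH libraries. The log2 fold change of Sham + CD minus Sham + VH was 0.83 (SE 0.18, edgeR FDR 0.0294), and Kcnh7 was up-regulated there, as 0.0836% of all genes were. The comparison had 251 DEGs, and 553 without Sham + VH replicate 3. With any 1 of the other 7 sham libraries left out it had 0 to 2 DEGs, and of these 7 settings Kcnh7 was called only without Sham + CD replicate 1 (edgeR FDR 0.0218). The drug difference in injured minus that in sham mice was -1.50 (SE 0.26, unadjusted p = 1.77e-05), the smallest p of that interaction test, in which 0 of 16756 genes were called (0%), 2196 (13.1%) had an unadjusted p under 0.05 and DESeq2 called 325. The edgeR FDR of the interaction for Kcnh7 was 0.0616, and it was 0.00195 without Sham + CD replicate 1, whose 5.93 CPM was the lowest of its group. With a replicate block the interaction had 106 DEGs. The interaction shares the injured libraries with the main comparison. Of 31 other voltage-gated channel genes 15 were higher in Sham + CD than in Sham + VH at an unadjusted p under 0.05, where 6.99% of all genes were, with a median of 0.19. In the interaction 15 of the 31 were below 0 at that p, where 6.52% of all genes were, with a median of -0.21.

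The other members of the Kcnh family, which form eag, erg and elk channels, had smaller differences or wider intervals. Kcnh1 had 47.0 to 61.0 CPM in TBI + VH and 47.0 to 60.3 CPM in TBI + CD, a log2 fold change of 0.06 with a 95% interval of -0.16 to 0.29. For Kcnh2 (erg1) the log2 fold change was 0.06 (interval -0.17 to 0.30), and -0.01 without TBI + CD replicate 1. For Kcnh3 (elk2), the most abundant member, it was 0.01 (interval -0.17 to 0.20), and a sign so near 0 turned under 4 of the alternatives. Kcnh5 (eag2) had 2.31 to 3.13 CPM in TBI + VH and 1.31 to 2.88 CPM in TBI + CD, with a log2 fold change of -0.42 (SE 0.22, unadjusted p = 0.0753). Of the 8 family members, Kcnh7 alone was under an unadjusted p of 0.05, where 4.37% of all genes were.

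Kcnh7 was measured in the same contrast at another time and in other regions. At 29 dpi in the hippocampus, where the drug was given by an osmotic pump from the second day, the log2 fold change of TBI + CD minus TBI + VH was -0.60 (SE 0.23, unadjusted p = 0.0170, edgeR FDR 0.882). At 3 dpi the thalamus gave -0.28 (unadjusted p = 0.288, edgeR) and the hypothalamus 0.0026 (unadjusted p = 0.984, edgeR). In edgeR each of these 3 comparisons called 0 genes (0%; DESeq2 called 4 at 29 dpi, Kcnh7 not among them), with 893 (5.31%), 344 (2.05%) and 353 (2.08%) genes at an unadjusted p under 0.05, and the differences between times and regions were not tested.

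Further genes with the smallest p, or the largest change among genes whose groups did not overlap, fall mostly at low levels. Il1rapl1, a synaptic adhesion protein gene at chrX:86740870-88115645, had 2.21, 2.77, 2.49 and 3.02 CPM in TBI + VH against 1.31, 1.46, 1.57 and 2.16 CPM in TBI + CD. All 4 TBI + CD libraries were lower (log2 fold change -0.69, SE 0.19, unadjusted p = 0.0020, edgeR FDR 0.999). Slc17a6, a vesicular glutamate transporter, had 20.7, 16.9, 12.2 and 13.1 CPM against 8.62, 4.34, 10.6 and 10.6 CPM (log2 fold change -0.87, SE 0.30). It is also 1 of 7 markers of thalamic neurons, of which 5 were below 0, with a median of -0.16. Summed thalamic markers had 65.3 to 98.1 CPM in TBI + VH and 57.1 to 72.2 CPM in TBI + CD. Whether neighbouring thalamic tissue had a part in this difference was not tested. Rxfp1, a relaxin receptor, had 3.32 to 4.50 CPM against 1.03 to 3.13 CPM (-0.83, SE 0.32). Mboat1, an acyltransferase, gave -0.64, and Lect1, chondromodulin, gave -0.73. The smallest p among lower genes was that of AK203628 (-0.44, unadjusted p = 0.00056), followed by Rpl9, a ribosomal protein gene (-0.53). Rpl9 was listed at only 2.36 to 4.46 CPM, and reads of ribosomal protein genes can be split with processed copies, so its value is uncertain. Adam18 (-0.89) and 2610037D02Rik (-1.12) were near or under 1 CPM, and Gm3002 (-0.70) and C730002L08Rik (-0.87) were at 0.51 to 1.998 CPM.

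Among the higher genes Ly6e, a small membrane-anchored protein of the Ly6 family that interferon is known to induce, had the smallest p of all genes. Its levels were 229.6, 233.4, 245.0 and 217.7 CPM in TBI + VH and 280.0, 293.0, 264.7 and 265.6 CPM in TBI + CD. The groups did not overlap, and the log2 fold change was 0.25 (SE 0.056, unadjusted p = 0.000304, edgeR FDR 0.999). Injury with vehicle, against Sham + VH, gave 0.02 (SE 0.056) for Ly6e. Its highest library, TBI + CD replicate 2, had the lowest summed level of the interferon-driven genes described below, 219 CPM. Replicates 3 and 4 of TBI + CD, lowest in Ly6e within their group, had the highest sums, 406 and 427 CPM. Ctns, which encodes the lysosomal cystine transporter, had 17.7 to 19.5 CPM against 20.3 to 22.6 CPM (0.22, SE 0.059). Adcy4, an adenylyl cyclase, had 1.61 to 2.60 CPM against 2.89 to 3.22 CPM (0.63, SE 0.19). Tmem52 (0.83), LOC100504703 (0.63), AU021092 (0.62), AK217941 (0.68) and the histone gene Hist2h3c1 (0.62), which has near-identical copies, were all under 5 CPM. Trpv4, a calcium-permeable channel of the plexus, gave 1.49 with 1.91 to 2.04 CPM in TBI + VH and 14.4, 2.56, 2.27 and 3.53 CPM in TBI + CD, so that 1 library set its size, and without it the log2 fold change was 0.48. Eps8l2, an actin regulator, had 7.83 CPM in the same TBI + CD replicate 1 and 2.92 to 4.29 CPM in the other 3 (0.88, SE 0.39), and without replicate 1 its log2 fold change was 0.52.

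**Figure D2:**
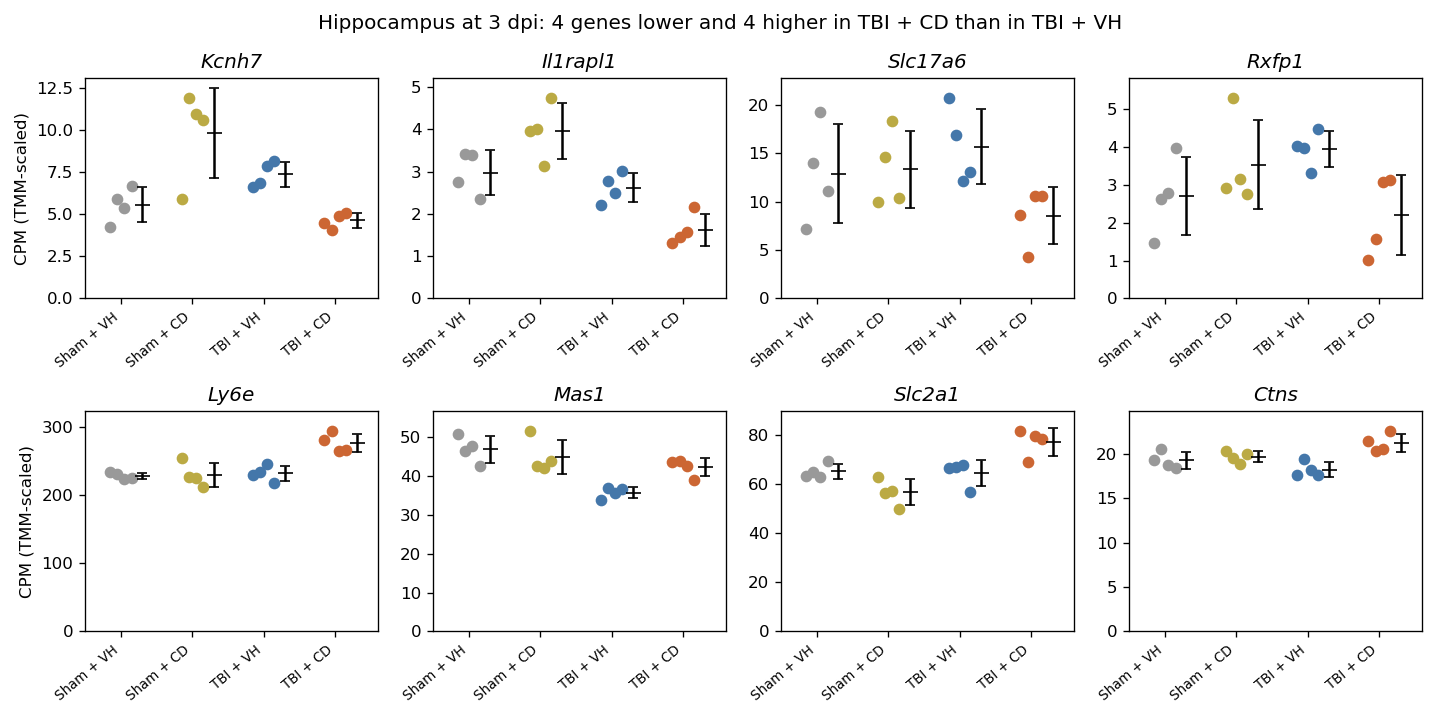
TMM-scaled CPM (y axis, from 0) of 8 genes in the 16 hippocampal libraries at 3 dpi, with 1 point per library, and the mean and SD of each group beside its points. In each of the 8 genes the 4 TBI + CD points lie wholly below or wholly above the 4 TBI + VH points, and Kcnh7 is highest in Sham + CD. All 8 are among the 460 genes (2.75%) whose injured groups do not overlap, so that this separation comes with the choice of genes.

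The receptors of the pathway were expressed at low levels. Agtr1a, the AT1 receptor of most tissues, had 0.36 to 0.55 CPM in TBI + VH and 0.23 to 0.56 CPM in TBI + CD (log2 fold change -0.28, 95% interval -0.997 to 0.44). With a library left out this value ran from -0.58 to -0.14. Agtr1b had 0 to 3 counts per library and was not tested. Agtr2, the AT2 receptor, had 0.17 to 0.77 CPM and 0.36 to 0.80 CPM (0.15, interval -0.68 to 0.97), and its sign turned when TBI + VH replicate 1 or TBI + CD replicate 4 was left out. At these levels the intervals of both receptors reached about 1 on the log2 scale, and smaller differences were not detectable.

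Mas1, the receptor of the opposing arm, was the only one of 13 tested renin-angiotensin genes under an unadjusted p of 0.05, where 4.37% of all genes were. It had 33.7, 37.1, 35.6 and 36.6 CPM in TBI + VH and 43.6, 44.0, 42.5 and 38.9 CPM in TBI + CD, with no overlap of the groups (2.75% of all genes). The log2 fold change was 0.24 (SE 0.070, unadjusted p = 0.00303, edgeR FDR 0.999). Injury had lowered Mas1 in vehicle mice, by 0.39 on the log2 scale from 46.9 ± 3.43 CPM (SD, n = 4) in Sham + VH (edgeR FDR 0.000783; 1.72% of all genes were down-regulated), and the 2 comparisons share the TBI + VH libraries. Agt, the angiotensinogen gene of astrocytes, gave 0.15 (interval -0.16 to 0.47), and 0.096 to 0.28 with a library left out. Ace, the converting enzyme, had 11.5 to 13.3 CPM in TBI + VH and 74.4, 9.82, 10.1 and 13.5 CPM in TBI + CD, the high value being that of the library with the plexus markers. Its log2 fold change was 1.09 with that library and -0.16 without it.

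Pparg had 1.01 to 1.62 CPM in TBI + VH and 0.79 to 1.58 CPM in TBI + CD (-0.34, SE 0.27). With a library left out its log2 fold change ran from -0.53 to -0.20. Of 14 tested genes that PPAR receptors are known to drive, 1 was under an unadjusted p of 0.05, where 4.37% of all genes were. As among all genes, 0 were called. The median over the 14 genes was 0.09, against 0.00030 over all genes.

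The genes that injury induces had high levels with and without the drug. To describe it with genes not chosen on these mice, the 88 genes up-regulated in TBI + VH against Sham + VH in the hippocampus at 29 dpi were taken, of which 86 were tested at 3 dpi. Of these, 84 were up-regulated at 3 dpi in TBI + VH and 84 in TBI + CD, each against Sham + VH, where 8.99% and 10.3% of all genes were up-regulated. Their median log2 fold changes were 2.17 and 2.23. In TBI + CD against TBI + VH 0 of the 86 were called (0% of all genes). At an unadjusted p under 0.05 1 was higher (2.03% of all genes) and 1 lower (2.34%). The median was 0.05, with 81 of the 86 intervals inside -1 to 1. Their summed level was 6076 to 10621 CPM in TBI + VH and 7193 to 10867 CPM in TBI + CD. The lowest of the 8 libraries was TBI + VH replicate 2.

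Gfap, the intermediate filament of reactive astrocytes, had 4531, 2859, 4863 and 4118 CPM in TBI + VH and 3805, 3391, 4433 and 4999 CPM in TBI + CD. Its log2 fold change with the drug was 0.02 (95% interval -0.34 to 0.38), beside 3.62 (SE 0.19) for injury with vehicle. Vim, vimentin, had 666, 265, 662 and 569.8 CPM against 443, 367, 571 and 755 CPM (-0.02, interval -0.52 to 0.48). C4b, a complement component, gave 0.02 (interval -0.20 to 0.25), the microglial gene Gpnmb -0.19 (interval -0.77 to 0.39) and the lysozyme gene Lyz2 -0.02 (interval -0.73 to 0.69). The signs of Gfap, Vim, C4b and Lyz2 turned when single libraries were left out. Gpnmb stayed below 0 but ran from -0.45 to -0.057. At 29 dpi the same contrast gave -0.60 for Gfap, -0.70 for Vim, -0.95 for Gpnmb, -0.94 for Lyz2 and -0.38 for C4b. None was called there by edgeR (FDR 0.219 for Gpnmb, the smallest of the 5), whereas DESeq2 called Gpnmb and Lyz2 at 29 dpi. The difference between 3 and 29 dpi was not tested.

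Groups of genes of the glial response are described here by their counts, beside 2.03% of all genes higher and 2.34% lower at an unadjusted p under 0.05. Of 26 genes of reactive astrocytes 0 were under that p (median 0.04). The same count was 0 of 20 for damage-responding microglia (median 0.02), 0 of 15 for complement (0.12) and 0 of 23 for DNA replication and mitosis (0.12). Of 12 genes of resting microglia, Selplg, a selectin ligand, was higher (0.16, SE 0.066). At 29 dpi 12 of the 26 reactive astrocyte genes and 9 of the 20 microglial genes were lower at that p, where 3.02% of all genes were.

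Genes that the study named on these samples for comparisons with Sham + VH were set side by side in the direct comparison, and are not independent evidence of a direction. Among matrix and adhesion genes, Fn1 (fibronectin) gave 0.22, Col3a1 0.41, Itga1 0.17, Vcl (vinculin) 0.11, Flna (filamin A) 0.10 and Actg1 0.04. Their 95% intervals all included 0. Pcna and Rfc3, which act at the replication fork, gave 0.08 and 0.04. The signs of Fn1 and Rfc3 turned when single libraries were left out. Pcna then ran from 0.00015 to 0.17, Flna from 0.015 to 0.15 and Col3a1 from 0.20 to 0.70. All 28 listed matrix genes were above 0, with a median of 0.18, and 3 of them were higher at an unadjusted p under 0.05 (2.03% of all genes), namely Thbs1, Adam8 and Mdk. Of these, Thbs1 (thrombospondin) had 3.07 to 5.53 CPM in TBI + VH and 5.45, 4.46, 20.9 and 5.57 CPM in TBI + CD, so that TBI + CD replicate 3 alone stood above the TBI + VH range by a wide margin.

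**Figure D3:**
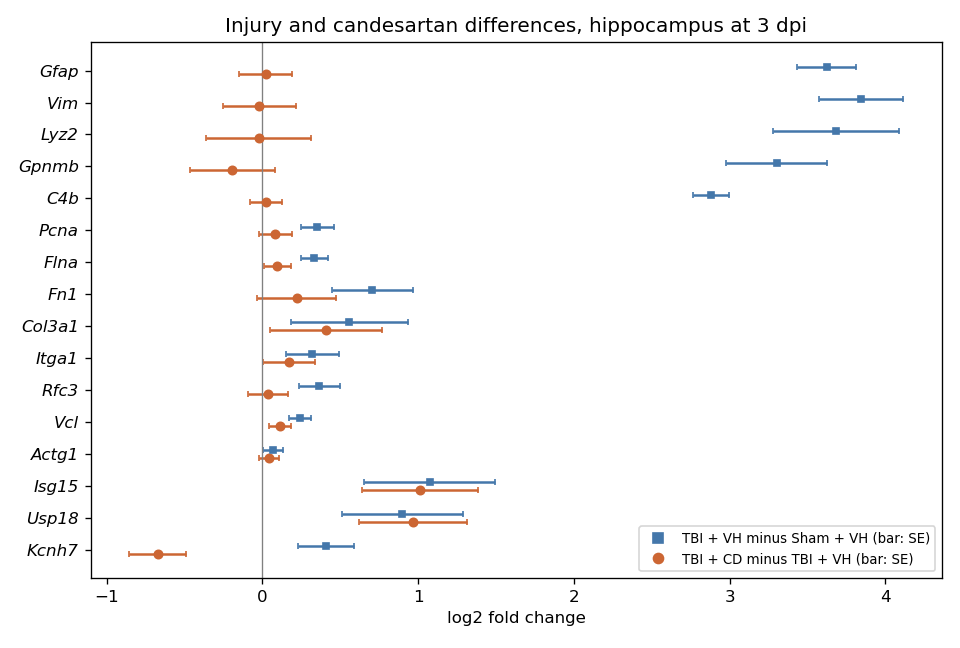
Log2 fold change (x axis) of 16 genes for TBI + VH minus Sham + VH (blue squares) and TBI + CD minus TBI + VH (orange circles) in the hippocampus at 3 dpi, each with its SE as a bar. Gfap, Vim, Lyz2, Gpnmb and C4b lie between 2.88 and 3.85 for injury and between -0.19 and 0.02 for the drug.

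That replicate also held the highest levels of a stress gene and a chemokine gene. Hmox1, heme oxygenase, had 11.8 to 29.6 CPM and 17.9, 19.1, 213 and 31.8 CPM. Ccl2, a monocyte chemokine, had 0.29 to 0.98 CPM and 0.75, 0.47, 3.29 and 1.002 CPM. In both genes TBI + CD replicate 3 was the highest of the 8 libraries, and the other 3 TBI + CD libraries fell within or close to the TBI + VH range. Without it the log2 fold change of Hmox1 was -0.01, against 1.61 with it. Markers of T cells and natural killer cells were at 0 to 4 counts for the 10 of 12 that were not tested.

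Interferon-driven genes gave the largest count at an unadjusted p among response groups. Type I interferon acts through a complex with Stat2 and Irf9 that binds the interferon-stimulated response element, and the induced genes block viral replication and sense nucleic acids. Of 30 such genes 10 were higher at an unadjusted p under 0.05 and 0 lower, where 2.03% of all genes were higher. Of the 30, 7 are also on a list that the study chose on these samples for up-regulation against Sham + VH in TBI + CD only, and 4 of the 10 are among them, so that these are not independent evidence of a direction. Of the other 23 genes 6 were higher at that p, with a median of 0.45. All 30 log2 fold changes were above 0, with a median of 0.42. None was called after adjustment, and for none of the 30 did the groups separate.

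The promoters of interferon-driven genes are shown because they hold the letters that this factor complex is known to bind. Of the 10 genes, 3 had at least 1 match in the RefSeq bases before the gene start (GRCm38.p6), given 5′ to 3′ on the strand of the gene, with matches in capitals. The Isg15 window is chr4:156200819-156201068 on the minus strand, that of Oas1a chr5:120907526-120907775 on the minus strand, and that of Stat2 chr10:128270248-128270497 on the plus strand.
Isg15: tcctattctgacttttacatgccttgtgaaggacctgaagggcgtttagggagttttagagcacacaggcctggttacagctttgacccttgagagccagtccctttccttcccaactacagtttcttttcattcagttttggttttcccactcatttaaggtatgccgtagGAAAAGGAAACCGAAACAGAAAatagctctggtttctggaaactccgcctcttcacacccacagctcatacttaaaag
Oas1a: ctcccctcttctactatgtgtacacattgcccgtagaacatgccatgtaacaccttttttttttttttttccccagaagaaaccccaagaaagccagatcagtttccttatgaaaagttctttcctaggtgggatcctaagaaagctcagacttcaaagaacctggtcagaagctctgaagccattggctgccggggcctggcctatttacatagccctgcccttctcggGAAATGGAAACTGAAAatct
Stat2: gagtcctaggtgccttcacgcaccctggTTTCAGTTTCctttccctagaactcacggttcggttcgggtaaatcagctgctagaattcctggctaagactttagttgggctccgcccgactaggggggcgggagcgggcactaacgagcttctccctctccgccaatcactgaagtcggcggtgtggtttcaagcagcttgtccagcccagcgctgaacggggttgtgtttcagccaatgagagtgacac
The motif searched was GAAANNGAAA, or TTTCNNTTTC on the other strand, with overlapping matches counted. In Isg15 the 3 matches overlap and start 78, 72 and 66 bases before the gene start. In Oas1a the 2 matches start 20 and 14 bases before it, and in Stat2 the match starts 222 bases before it. A match was present for 10 of the 21 interferon genes with a promoter in the table (47.6%), for 3 of the 6 matched genes under the unadjusted p, and for 3.46% of all 27025 genes with a promoter there (2.98% of 32851 promoters). A match is a description of the letters and not a measured binding site.

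Isg15, a ubiquitin-like protein gene, had 1.33, 1.36, 2.53 and 1.03 CPM in TBI + VH and 2.70, 0.83, 4.57 and 4.57 CPM in TBI + CD (log2 fold change 1.01, SE 0.37, unadjusted p = 0.0149, edgeR FDR 0.999). Usp18, which removes the product of Isg15 from proteins, had 0.75, 1.16, 2.02 and 0.74 CPM and 1.86, 1.07, 3.14 and 3.09 CPM (0.97, SE 0.35). TBI + CD replicates 3 and 4 were the highest libraries in both genes, and TBI + CD replicate 2 lay within or below the vehicle range. Oas1a, an oligoadenylate synthetase, had 1.06 to 3.32 CPM against 1.38 to 5.45 CPM (0.94, SE 0.39). Oasl2, of the same family, had 4.46 to 10.7 CPM against 4.58 to 14.8 CPM (0.75, SE 0.31). Zbp1, a nucleic acid sensor, had 0.46 to 1.45 CPM against 0.32 to 5.33 CPM (1.44, SE 0.59). Without TBI + CD replicate 4 the log2 fold change of Zbp1 was 0.76, and without TBI + CD replicate 3 that of Oas1a was 0.62.

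Stat2, which encodes a part of the transcription factor complex, overlapped between the groups. It had 33.6, 36.9, 38.6 and 34.2 CPM in TBI + VH and 40.2, 33.4, 44.5 and 42.5 CPM in TBI + CD (0.16, SE 0.074). Ddx58, the RIG-I sensor (0.38), Ifi44 (0.92) and Rtp4 (0.77) likewise had replicates 3 and 4 of TBI + CD as their highest libraries. Sp100 (0.80) and Trim34a (0.60), which are on the list of the study, were also highest in those replicates.

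The summed level of the 30 genes was 265, 245, 347 and 243 CPM in TBI + VH and 329.9, 219, 406 and 427 CPM in TBI + CD. The count of 10 was 1 without TBI + CD replicate 3, 1 without replicate 4, 21 without replicate 2, 3 without TBI + VH replicate 1 or replicate 4, 18 without TBI + VH replicate 3, and 4 in the 8 libraries alone. The libraries highest in these genes were the same 2 TBI + CD libraries that were highest in resting microglia genes within their group (1302 and 1245 CPM, against 780 to 1195 CPM in TBI + VH), and the part of microglial RNA in the result was not tested. Against Sham + VH, with libraries shared, 16 of the 30 genes were up-regulated in TBI + VH, where 8.99% of all genes were, with a median of 1.04. In TBI + CD 28 were, where 10.3% of all genes were, with a median of 1.61. The median in TBI + CD against TBI + VH was -0.03 in the hippocampus at 29 dpi. At 3 dpi it was 0.27 in thalamic and -0.02 in hypothalamic libraries.

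**Figure D4:**
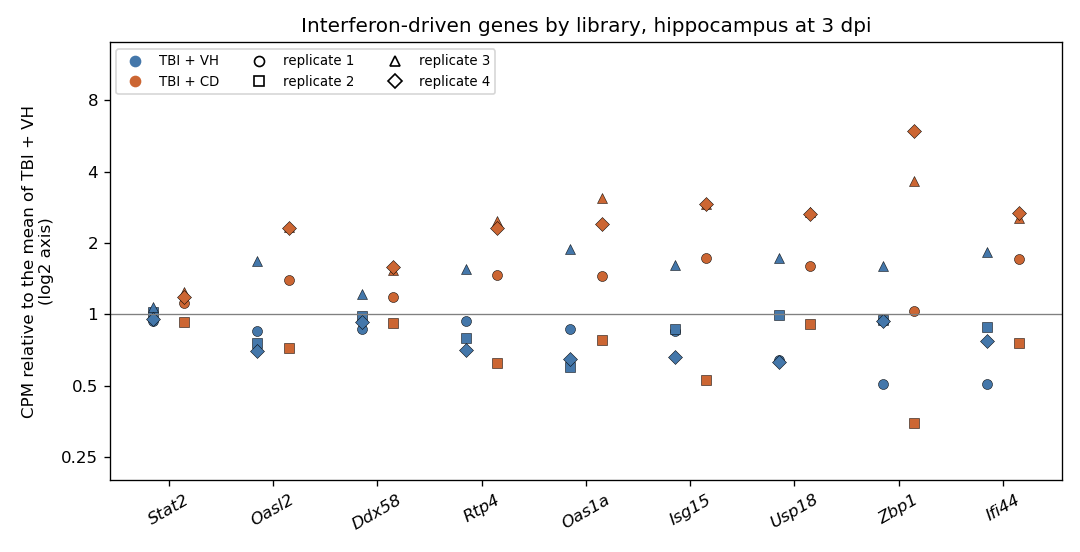
CPM of 9 interferon-driven genes relative to the mean of the 4 TBI + VH libraries (y axis, log2 scale), with TBI + VH in blue, TBI + CD in orange and replicates by symbol. TBI + CD replicates 3 and 4 (triangles and diamonds) are the highest libraries in each gene, and TBI + CD replicate 2 (squares) lies within or below the range of TBI + VH.

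Endothelial genes gave small positive log2 fold changes that did not pass the adjusted test, and their summed level overlapped between the groups, with 275 to 363 CPM in TBI + VH and 319 to 396 CPM in TBI + CD. The brain endothelium forms the blood-brain barrier, and AT1 receptors act on vessels. Of 16 endothelial markers 4 were higher at an unadjusted p under 0.05 (2.03% of all genes) and all 16 log2 fold changes were above 0, with a median of 0.25. Slc2a1, the glucose transporter of the barrier, had 66.5, 67.0, 67.5 and 56.6 CPM in TBI + VH and 81.3, 68.7, 79.4 and 78.1 CPM in TBI + CD. The groups did not overlap (log2 fold change 0.26, SE 0.074, unadjusted p = 0.00286, edgeR FDR 0.999). Esam, an adhesion molecule of endothelial junctions, had 6.96 to 9.21 CPM against 8.99 to 12.8 CPM (0.46, SE 0.15). Pecam1 gave 0.38 (SE 0.16) and Ly6c1 0.27 (SE 0.11). Of 10 genes of pericytes and vascular smooth muscle all were above 0 (median 0.23), and Rgs5, a pericyte marker, was under that p (0.29, SE 0.13).

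The summed endothelial level was 275 to 363 CPM in TBI + VH and 319 to 396 CPM in TBI + CD, and 274 to 371 CPM in Sham + VH. In bulk tissue more cells of a type and more RNA per cell cannot be told apart. The count of 4 was 2 without TBI + VH replicate 4, 9 without TBI + VH replicate 3 and 8 without TBI + CD replicate 2. At 29 dpi the median over the same markers was 0.27, with 0 of 16 under the unadjusted p, and at 3 dpi it was 0.14 in thalamic and -0.04 in hypothalamic libraries.

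Genes of myelinating oligodendrocytes had lower levels in TBI + CD, without passing the adjusted test. These cells wrap axons in myelin, and their genes are among the most abundant in white matter. Of 11 markers 4 were lower at an unadjusted p under 0.05, where 2.34% of all genes were, and all 11 were below 0 with a median of -0.40. The groups separated for 5 of the 11, where 1.44% of all genes did in that direction. Mal, a myelin lipid raft protein, had 300.2, 315, 300.8 and 248 CPM in TBI + VH and 242, 202, 215 and 189 CPM in TBI + CD. All TBI + CD libraries were below all TBI + VH libraries (log2 fold change -0.46, SE 0.21, unadjusted p = 0.0454, edgeR FDR 0.999). Ugt8a, which makes myelin galactolipids, had 56.2 to 67.3 CPM against 41.6 to 54.2 CPM (-0.44, SE 0.17). Ermn gave -0.46 and Mag, a myelin adhesion molecule, -0.41.

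The sham libraries spread more widely in these genes than either injured group. The 11 markers summed to 1727 to 4499 CPM in Sham + VH, to 3805 to 4386 CPM in TBI + VH and to 2973 to 3792 CPM in TBI + CD. The count of 4 was 11 in the 8 injured libraries alone. It was 11 when the first and 9 when the third replicate of Sham + VH was left out, and 8 when TBI + CD replicate 1 was. It was 0 or 1 when any 1 of Sham + VH replicate 2, TBI + VH replicates 1 and 3, Sham + CD replicates 3 and 4, or TBI + CD replicates 2, 3 and 4 was left out, and 2 for TBI + VH replicate 2. Of 10 genes of oligodendrocyte precursors 7 were below 0, with a median of -0.08, and 1 was under an unadjusted p of 0.05, where 4.37% of all genes were. That was Gpr17, which marks cells about to differentiate, with 154.9 to 206 CPM against 176 to 273 CPM (0.32, SE 0.13). At 29 dpi the median of the 11 markers was 0.19, and at 3 dpi it was 0.05 in thalamic and -0.09 in hypothalamic libraries.

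Choroid plexus genes made up the largest fold changes, and among the 8 injured libraries they came from 1. Of 25 tested plexus markers 13 were higher at an unadjusted p under 0.05 (2.03% of all genes), with a median of 1.78. Ttr, transthyretin, had 4.33, 129, 58.5 and 26.6 CPM in TBI + VH and 2380, 20.7, 7.89 and 129.7 CPM in TBI + CD (log2 fold change 3.55, SE 1.37). Slc4a5, a bicarbonate transporter of the plexus, gave 3.78, with 22.2 CPM in TBI + CD replicate 1 and 0.083 to 1.48 CPM in the other 7 libraries. The potassium channel subunit Kcne2 (3.33) and the coagulation factor gene F5 (2.78) had the same pattern. Without TBI + CD replicate 1 the median over the 25 genes was -0.04 and 0 were under that p. The sham libraries also differed in these genes. Ttr had 6123, 3857, 153 and 4089 CPM in Sham + VH, 3 of which are above the highest injured library, and 35.3, 36.4, 80.0 and 61.5 CPM in Sham + CD. The summed plexus markers ran from 502 to 9047 CPM in Sham + VH and from 193 to 299 CPM in Sham + CD. The sham and interaction comparisons use these libraries, and the part of plexus tissue in them was not tested.

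The summed level of genes of the ciliated cells that line the ventricles was highest in TBI + CD replicate 1, the injured library with most plexus RNA, and in the other 3 TBI + CD libraries it was below all TBI + VH libraries. Of 20 tested genes of motile cilia 1 was lower at an unadjusted p under 0.05, Rsph4a of the radial spoke, where 2.34% of all genes were. It had 6.16 to 8.99 CPM in TBI + VH and 7.08, 5.36, 3.80 and 4.57 CPM in TBI + CD (-0.49, SE 0.22). The median was -0.30. The summed level was 108, 140, 109 and 149 CPM in TBI + VH and 169, 97.6, 75.2 and 89.6 CPM in TBI + CD. Without TBI + CD replicate 1 the median was -0.75 and 13 of the 20 genes were lower at that p, where 2.86% of all genes were. With the plexus markers as a covariate the median was -0.53. Foxj1, the master regulator of motile cilia, had 16.4 to 21.8 CPM against 27.0, 15.5, 10.3 and 13.5 CPM, so that replicates 2 to 4 of TBI + CD were each below all TBI + VH libraries, and its log2 fold change was -0.17 (SE 0.23), with a sign that turned without TBI + CD replicate 3. The amount of ventricular tissue in each dissection was not recorded in the labels, and its part in these results was not tested.

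**Figure D5:**
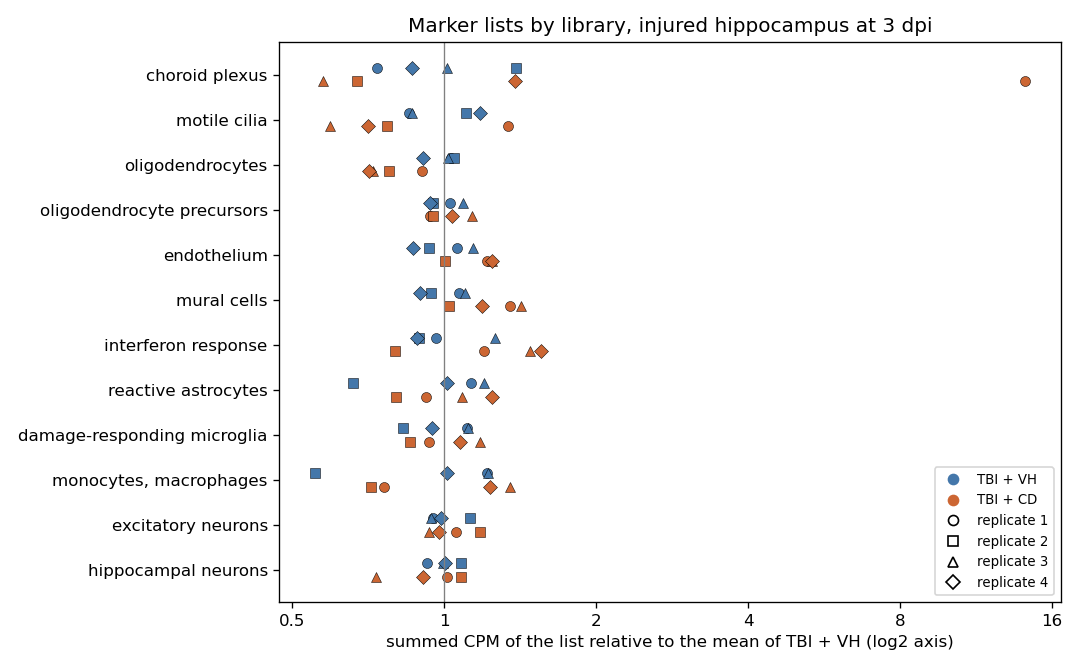
Summed CPM of 12 marker lists in each of the 8 injured libraries, relative to the mean of TBI + VH (x axis, log2 scale), with TBI + VH in blue, TBI + CD in orange and replicates by symbol. The 4 TBI + CD libraries lie below the 4 TBI + VH libraries for oligodendrocytes, and TBI + CD replicate 1 lies far to the right for choroid plexus.

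Lists of neuronal genes had small median differences, while single members differed by more. The median log2 fold change was 0.01 over 10 genes of excitatory neurons, -0.05 over 9 of inhibitory neurons and -0.08 over 10 of hippocampal principal cells. It was -0.01 over 8 genes of newborn, -0.03 over 8 of cortical, -0.16 over 7 of thalamic and 0.05 over 5 of hypothalamic neurons. Members of these further lists ran from -0.94, in newborn neurons, to 2.50 for Pomc, which had 16.3 CPM in TBI + CD replicate 1 and at most 1.26 CPM in any other injured library. Grin2b, an NMDA receptor subunit, had 31.2, 48.3, 49.8 and 61.9 CPM in TBI + VH and 30.6, 39.3, 32.5 and 42.4 CPM in TBI + CD (-0.40, SE 0.16). Without TBI + VH replicate 4 its log2 fold change was -0.25. Wfs1, a marker of CA1 pyramidal cells, had 168 to 190 CPM and 154, 171, 83.0 and 150.5 CPM (-0.37, SE 0.17), the lowest value being that of TBI + CD replicate 3, without which it was -0.18. Of 31 other voltage-gated channel genes 24 were below 0, with a median of -0.06. At an unadjusted p under 0.05 2 were lower (2.34% of all genes), the sodium channel Scn1a (-0.18, SE 0.064) and Kcnb2 (-0.25, SE 0.11), and 1 was higher (2.03%), Kcnq5 (0.21, SE 0.066). Of 15 immediate early genes, which neuronal activity induces, 5 were below 0, the median was 0.04 and 1 was under that p. This was Egr2, which gave 0.87 (SE 0.32), with 0.83 to 1.18 CPM against 0.84 to 2.94 CPM.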

How the data were processed

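RNA-seq counts were analysed from the ipsilateral hippocampus at 3 dpi. The values deposited by the authors are raw counts per gene symbol, made from paired-end reads that the authors aligned to mm10 with MapSplice and counted with HTSeq 0.9.1. The annotation and the strand setting are not given in the sources used here, so that paralogs and overlapping genes are uncertain. Library totals ranged from 19683802 to 27272519 counts.

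Counts of the 16 hippocampal libraries of 4 groups were filtered by filterByExpr, scaled by TMM and tested in edgeR 4.0.16 (quasi-likelihood F test, 2-sided; R 4.3.3), with Benjamini-Hochberg adjustment over all genes tested. SEs were obtained by dividing the absolute log2 fold change by the root of the F statistic. No pair of libraries within a group agreed within sampling noise, with a chi-square per degree of freedom of 6.21 to 36.3. Positions are from GENCODE vM21, in which 14913 of the 16756 symbols (89%) were found, and promoters from RefSeq.

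The members, the gene lists and the alternatives were chosen with earlier results of these data known. Genes are named where the study names them for this comparison or its neighbours, where they have 1 of the 8 smallest p or 1 of the 8 largest increases or decreases among genes with unadjusted p under 0.05, a mean of at least 1 CPM and groups that do not overlap, where they belong to the AT1, AT2 and PPAR gamma genes, and where they are abundant members of a list or members under that p. Kcnh1, Kcnh2, Kcnh3 and Kcnh5 are the abundant members or relatives of Kcnh7. Alternatives were DESeq2 1.42.0, RLE factors, no filter, FDR alone, only the libraries compared, a replicate block, a choroid plexus covariate, and each library left out. That covariate was the mean log2 CPM of the plexus markers in each library. Gene lists were given no test of their own. Some genes of these lists are counted but not reported singly here.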

Additional observations from a re-analysis of the deposited data

Results flagged for a closer look

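In each injured group of 4 libraries, the gap of the highest or lowest library to its neighbour, divided by the range of the group, was compared with Dixon's 95% critical value, which chance exceeds in about 1 in 20 groups. Of 254 groups examined 24 (9.45%) exceeded it, 11 of them through TBI + CD replicate 1.

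TBI + CD replicate 1 was set apart by high values of Ttr (ratio 0.949), Kcne2 (0.939), F5 (0.932), Slc4a5 (0.938), Trpv4 (0.897), Ace (0.942) and the summed plexus markers (0.941). The same held for the summed genes that the study named as down-regulated with vehicle only (0.949) and for hypothalamic markers (0.918), whose sum was 18.0 CPM. That library had the lowest level of AK203628 (0.951) and of Tmem52 (0.832). TBI + CD replicate 3 was high in Hmox1 (0.929) and Thbs1 (0.933), and TBI + CD replicate 2 was low in summed endothelial markers (0.868).

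TBI + VH replicate 2 was low in Gpnmb (0.832), Lum (0.832) and summed renin-angiotensin genes (0.883), and high in Gm3002 (0.876), Kcnh3 (0.837) and summed thalamic markers (0.868). TBI + VH replicate 3 was high in Oasl2 (0.847) and Trim34a (0.909) and low in Pparg (0.897). TBI + VH replicate 4 was low in Slc2a1 (0.903).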

How the results depend on the processing

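The count of 0 DEGs in TBI + CD against TBI + VH held under all 23 alternatives, with a smallest FDR of 0.171 (without TBI + CD replicate 1) to 1, and the number of genes at an unadjusted p under 0.05 ran from 604 to 893 with a library left out and from 705 to 979 otherwise. The thalamus and hypothalamus also kept 0 DEGs, and at 29 dpi DESeq2 called 4 where edgeR called 0. The interaction, with 0 DEGs, gave 118 without a filter on low counts, 325 by DESeq2 and 0 to 431 with a library left out. Sham + CD against Sham + VH, with 251 DEGs, gave 450 by DESeq2 and 0 to 553 with a library left out. The cause of these shifts was not tested.

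Counts of list members under an unadjusted p, with a library left out, ran from 1 to 21 for the 10 interferon genes, from 2 to 9 for the 4 endothelial genes, from 0 to 11 for the 4 oligodendrocyte genes, from 0 to 19 for the 13 plexus genes and from 0 to 13 for the 1 gene of motile cilia. In the 8 libraries alone they were 4 for interferon, 11 for oligodendrocytes and 8 for plexus. For oligodendrocytes they were 7 without a filter and 2 by DESeq2. With the plexus covariate they were 1 for oligodendrocytes, 0 for plexus and 5 for cilia. Because the covariate is the mean of the plexus markers themselves, their fall to 0 was built in and tests nothing. These list alternatives were chosen after seeing the data.

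The labels give no source for a pairing by replicate number, and not every pair correlated above 0.1: correlations of same-numbered deviations ran from -0.12 to 0.32. As a hint from the data only, 5 of 8 libraries correlated best with their own number. With a replicate block the interaction gave 106 DEGs, plexus genes under the unadjusted p 7 and cilia genes 0, and the sign of Lyz2 turned (0.016).

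Of 88 genes followed, 75 kept their direction in every setting. With a library left out the log2 fold change ran from -0.12 to 0.50 for Agtr2, -0.25 to 0.12 for Vim, -0.31 to 0.18 for Lyz2, -0.064 to 0.098 for C4b, -0.12 to 0.12 for Gfap, -0.072 to 0.15 for Rfc3, -0.036 to 0.081 for Kcnh3, -0.16 to 1.39 for Ace, -0.010 to 0.15 for Kcnh2, -0.040 to 4.40 for Ttr, -0.00996 to 1.92 for Hmox1, -0.50 to 0.017 for Foxj1 and -0.017 to 0.37 for Fn1. Among genes under the unadjusted p that kept their sign, leaving out TBI + CD replicate 3 lowered Ccl2 to 0.24, Adam8 to 0.16, Thbs1 to 0.11, Mdk to 0.25, Pecam1 to 0.23, Sp100 to 0.51 and Gpr17 to 0.21. Leaving out TBI + VH replicate 3 raised Oasl2 to 1.14, Oas1a to 1.46, Ifi44 to 1.42 and Trim34a to 0.93. Ly6c1 was 0.17 without TBI + VH replicate 4, Rgs5 0.19 without TBI + CD replicate 4 and Lum 0.31 without TBI + VH replicate 2. With the plexus covariate Ace was -0.059, Kcnh3 -0.023, Ttr -0.043, Vim 0.042 and Lyz2 0.075. Ttr is itself 1 of the markers in that covariate, so its value there is no test. The 4 libraries per group and the depth limit what low genes can show.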

Other observations

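Of 15 genes of meningeal fibroblasts and collagen matrix 2 were higher at an unadjusted p under 0.05, where 2.03% of all genes were, and 5 were below 0. The median was 0.07, and without TBI + CD replicate 1 it was -0.12 with 1 gene higher at that p. The summed level was 185 to 274 CPM in TBI + VH and 417, 226, 294 and 270 CPM in TBI + CD, the highest being that of replicate 1, which also held the most plexus RNA of the injured libraries. Col6a1, a collagen VI chain, had 53.5, 36.7, 52.5 and 58.3 CPM in TBI + VH and 72.5, 77.2, 112 and 58.1 CPM in TBI + CD (log2 fold change 0.67, SE 0.29). Lum, a small proteoglycan, had 2.47 to 4.75 CPM and 3.71 to 7.18 CPM (0.47, SE 0.20). The midkine gene Mdk, a growth factor, had 12.7 to 15.8 CPM in TBI + VH and 15.2, 18.1, 26.7 and 17.3 CPM in TBI + CD (0.44, SE 0.14), TBI + CD replicate 3 being the highest library. Of 11 genes of resting astrocytes 4 were below 0, the median was 0.04 and 1 was under that p. This was Aldoc (0.14, SE 0.069), with 1009 to 1204 CPM against 1126 to 1271 CPM.

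Of 11 neutrophil genes 3 were tested, and Mmp9, a gelatinase, had 1.47 to 1.71 CPM in TBI + VH and 1.72 to 2.56 CPM in TBI + CD (0.43, SE 0.20), with groups that did not overlap. None of these genes passed the adjusted test of edgeR (FDR 0.999).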
